A study of Mus musculus with 4 samples.

Results

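Class II high myeloid cells with few C1q transcripts were examined in MC38 tumours, grown from a mouse colon carcinoma cell line in the flank of mice carrying the IL-12p40-IRES-EYFP transgene, which links yellow fluorescent protein to the p40 chain of interleukin-12. Both anti-CD40 tumours and the untreated tumour carried this reporter in the host; the labels used here give no strain, age or sex. After 7 days of growth the anti-CD40 group received an agonist antibody against the receptor Cd40, 5 mg/kg into the peritoneum, and the other group was left untreated. Leukocytes (CD45+) were sorted 2 days later and sequenced in droplets by inDrops, where unique molecular identifiers (UMIs) count RNA molecules. There were 2 anti-CD40 tumours and 1 untreated tumour, so that differences between the conditions rest on 1 untreated tumour.

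The members were 337 of the 2914 cells that the authors annotated as MoMacDC (monocytes, macrophages and dendritic cells), among 4440 cells in all. They were chosen by their measured values. H2-Aa, H2-Ab1, H2-Eb1 and Cd74 together held at least 1.5% of the UMIs of a cell. The complement genes C1qa, C1qb and C1qc summed to fewer than 3 UMIs, and so did the monocyte genes Ly6c2, Chil3 and Vcan, the mature dendritic cell genes Fscn1, Ccr7, Ccl22 and Cacnb3, and the arginase gene Arg1. The class II cutoff left 1323 cells, the C1q limit 445, the monocyte limit 429, the mature dendritic cell limit 398 and the Arg1 limit 337. Anti-CD40 tumour 1 gave 26 members, anti-CD40 tumour 2 gave 146 and the untreated tumour gave 165. The remaining 2577 MoMacDC cells are called the remaining cells.

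As background, MHC class II molecules carry peptides from engulfed protein to the cell surface, where CD4+ T cells read them. Cd74 (the invariant chain) guards the empty groove, H2-DM exchanges its remnant for peptide, and Ciita is the transcriptional coactivator that class II genes depend on. Dendritic cells, B cells and activated macrophages are known for high class II, whereas C1q in tumours is known as a product of macrophages.

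The C1q limit is a measured one and does not mean absence of C1q. Of the 337 members, 200 had no C1q UMI, 67 had 1 and 70 had 2, and 88 class II high cells stood just outside with exactly 3. After each cell was thinned to 300 UMIs, C1qa was found in 9.57% of members (95% Clopper-Pearson interval 6.09 to 14.1, 230 cells), against 50.1% of the remaining cells (48.0 to 52.1, 2307 cells) and 4.70% of T cells (2.59 to 7.76, 298 cells), which should lack it. Median depth was 411 UMIs in members, 698 in the remaining cells and 575 in T cells, and the unthinned shares were 16.9%, 63.3% and 7.21%. Class II genes held a median of 3.39% of the UMIs of a member, with 1.502% just inside and 1.485% just outside the cutoff. The cutoff region was filled, with 69 members between 1.5% and 2% and 77 cells between 1% and 1.5% that met every other limit. These values were used by the rule and are given as a description; all intervals cover counting error only.

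Defining markers of conventional dendritic cells had few UMIs in the members, although the broader dendritic cell lists were present. Clec9a, a receptor of cross-presenting dendritic cells, was not detected in 337 members, and Xcr1, another marker of that lineage, had 1 UMI. Cd209a, a marker of conventional type 2 dendritic cells, had 5 UMIs, all in the untreated tumour. Flt3, the growth factor receptor of dendritic cells, had 3 and 1 UMIs in members of anti-CD40 tumours 1 and 2 and 8 in those of the untreated tumour. Zbtb46, a transcription factor of conventional dendritic cells, had 1, 0 and 1 UMIs. The lysozyme gene Lyz2, a marker of monocytes and macrophages, was by contrast found in 65.7% of thinned members (59.1 to 71.8), against 69.8% of the remaining cells (67.9 to 71.7) and 4.36% of T cells (2.34 to 7.34). Counting cells with at least 3 UMIs of a list, 260 members carried the monocyte list, 206 the macrophage list, 172 both, and 151 the lists of dendritic cells. The pan dendritic cell list summed to 2880 and 1101 CPM (UMIs per 1000000 UMIs of the summed cells, gate genes left out) in members of anti-CD40 tumours 1 and 2 and to 2875 in those of the untreated tumour, against 1019.7, 887 and 1247 in the remaining cells. Of the members, 18 carried dendritic cell lists without the monocyte or macrophage list, and 23 carried none of these. The lists share genes with macrophages (Itgax, Irf8 and Sirpa), and deeper cells reach 3 UMIs more easily. The members are therefore called by their rule and not as a cell type.

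Among markers of other cells, at least 3 UMIs of T cell, NK cell, B cell or neutrophil genes were found in 14 members. The neutrophil list summed to 527 and 1260 CPM in members of anti-CD40 tumours 1 and 2 and to 172 in those of the untreated tumour. Its share of carrying members was 1 of 26 and 11 of 146 in the anti-CD40 tumours and 0 of 165 in the untreated tumour. B cell, NK cell and plasmacytoid dendritic cell lists reached 3 UMIs in no member. No cell barcode was shared between the 12 libraries.

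Members were shallower than the remaining cells in each tumour. The median was 615 and 585.5 UMIs in members of anti-CD40 tumours 1 and 2 and 310 in members of the untreated tumour. The remaining cells had medians of 1063.5, 982 and 448 UMIs. Limits in raw UMIs are met more easily by shallow cells, and a few class II molecules fill 1.5% of a small total: 28 members had at most 4 class II UMIs. The summed UMIs of the members were 25817, 124691 and 61248 in the tumours in the same order.

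**Figure D1:**
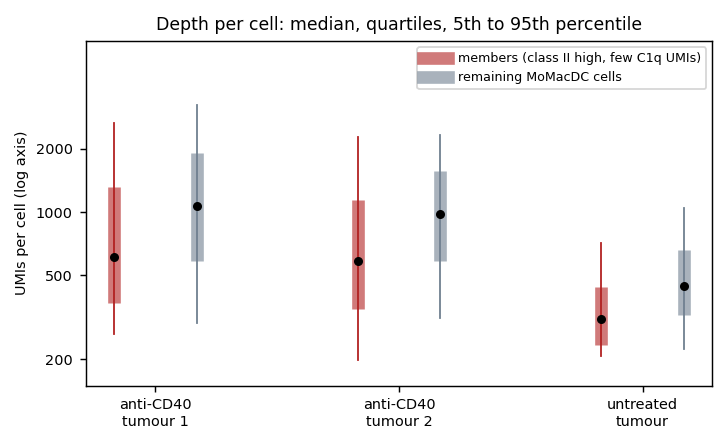
UMIs per cell on a log axis for members and remaining MoMacDC cells of each tumour; points are medians, thick bars quartiles and thin lines the 5th to 95th percentile. Members sit below the remaining cells in every tumour, and cells of the untreated tumour (medians 310 and 448) below those of both anti-CD40 tumours.

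The share of members among MoMacDC cells was 5.80% (3.83 to 8.39, 26 of 448 cells) in anti-CD40 tumour 1, 11.0% (9.35 to 12.8, 146 of 1330) in anti-CD40 tumour 2 and 14.5% (12.5 to 16.7, 165 of 1136) in the untreated tumour. The order changed once depth was matched. With cells thinned to 300 UMIs before gating, anti-CD40 tumour 1 had 13.1% (10.04 to 16.7), anti-CD40 tumour 2 had 21.1% (18.9 to 23.5) and the untreated tumour had 16.8% (14.4 to 19.5), so that the untreated tumour lay between the anti-CD40 tumours. Thinning left out 29, 67 and 281 MoMacDC cells with fewer UMIs. Among cells with at least 300 UMIs the raw gates gave 5.01%, 9.50% and 10.4%, in the same order as over all cells. Among cells with at least 600 UMIs the raw gates gave 3.96%, 7.47% and 5.35%. An exact permutation test of 2 tumours against 1 cannot give a p below 0.3333, so no difference in share was tested.

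Within pool 1 the share was 5.73% in anti-CD40 tumour 1 and 17.1% in the untreated tumour, and within pool 2 it was 5.86% and 11.3%. By library, the share ranged between 4.88% and 7.25% for anti-CD40 tumour 1, between 8.72% and 18.7% for anti-CD40 tumour 2, and between 7.11% and 17.9% for the untreated tumour. The ranges of anti-CD40 tumour 2 and the untreated tumour overlapped. A library of anti-CD40 tumour 2 in pool 3 gave 18.7%, its other 3 gave 8.72% to 8.99%, and without that library the tumour stood at 8.89%. That library also had a lower median depth (589 UMIs per MoMacDC cell, against 1075 to 1291 in the other 3), and its part in the share was not tested apart from thinning, which left it at 25.3% against 19.6% to 20.8%.

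**Figure D2:**
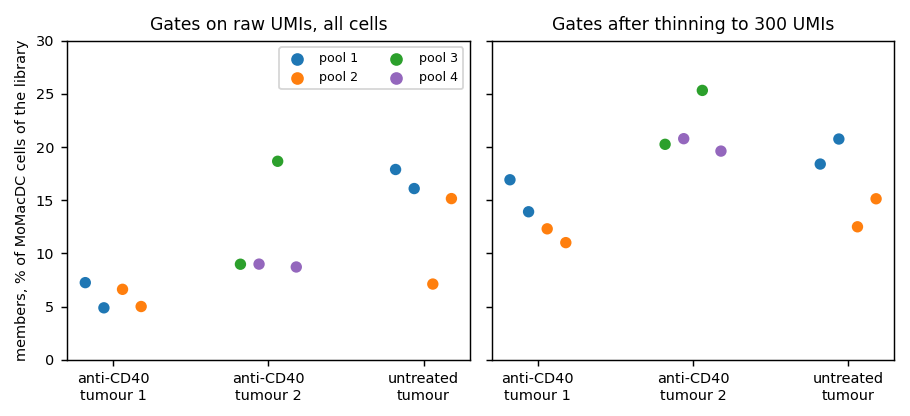
Share of members among the MoMacDC cells of each of 12 libraries, coloured by sequencing pool, with the gates on raw UMIs at left and on counts thinned to 300 UMIs at right. With raw gates all 4 libraries of anti-CD40 tumour 1 lie below 8% and the untreated libraries reach 17.9%; after thinning the libraries of anti-CD40 tumour 2 lie at 19.6% to 25.3% and the untreated ones at 12.5% to 20.8%.

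To place the members among the other cells without the gates, MoMacDC cells were clustered with the 15 gate genes taken out. The members fell into 10 of 11 clusters. A cluster led by Gatm, Fcrls and Ms4a7 held 27.3% of members (32.8% of the remaining cells), a cluster led by Gdf15, Nr1h3 and Ace held 19.9% (14.8%), and a cluster led by Ptgfrn, Vegfa and Ifitm1 held 18.4% (18.3%). The tumours filled them differently: 76 of the 92 members in the Gatm cluster came from the untreated tumour, whereas anti-CD40 tumour 2 gave 49 of the 67 in the Gdf15 cluster and 51 of the 62 in the Ptgfrn cluster. A small cluster led by Ifitm1, Klrk1 and Ciita stood apart in its share of members. It held 59 cells, of which 35 were members, and so 10.4% of members but 0.931% of the remaining cells. Of these 35 members, 3 and 3 came from anti-CD40 tumours 1 and 2 and 29 from the untreated tumour. Its leading genes held Wdfy4, Ifitm1 and Ciita, 1 marker from each of 3 dendritic cell lists, and no marker from the macrophage, monocyte or other cell type lists. It is left without a cell type name, because single markers from these lists do not settle one. Clusters led by T cell, neutrophil and mature dendritic cell genes held 11, 14 and 9 members, and 13 of the 14 in the neutrophil-led cluster came from anti-CD40 tumour 2. The cluster shares are a description, since genes that go with the gates shaped the clusters.

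**Figure D3:**
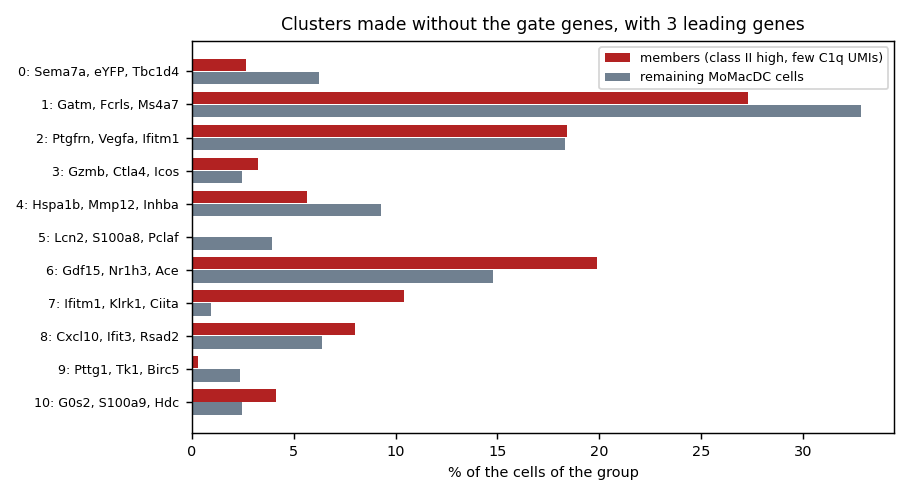
Percentage of members and of remaining MoMacDC cells in each of 11 clusters made without the gate genes, named by number and 3 leading genes. The cluster led by Ifitm1, Klrk1 and Ciita holds 10.4% of members and 0.931% of the remaining cells; elsewhere members spread over the same clusters as the remaining cells, apart from the cluster led by Lcn2 and S100a8, which holds no member.

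Against the remaining cells, members had more transcripts of Ciita, H2-DMb1, H2-DMb2, Ifitm1 and Malt1, and fewer of Apoe, Lgmn, Pf4, Spp1 and Ctsb. UMIs were summed per tumour and compared by edgeR's quasi-likelihood test with the tumour as a block and Benjamini-Hochberg adjustment. Of 5503 genes tested, 17 passed at an adjusted p below 0.05 (0.309%), 6 of them higher (0.109%) and 11 lower (0.2%), and 16 of the 17 moved the same way in all 3 tumours. The gate genes were left out of the counts and the library totals, but several genes are known to be expressed along with them, so that a gene that goes with class II or C1q had to move to some degree. Levels below are CPM. In such sums, fewer cells with a transcript and less of it per cell cannot be told apart. The deposited cell table gives each of the 3 tumours its own animal label. The fit had 2 residual degrees of freedom, and the error was largely shared over all genes. A p-value here therefore does not measure the spread of a single gene between these 3 tumours.

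Ciita stood at 527 and 58.4 CPM in members of anti-CD40 tumours 1 and 2 and at 344 in members of the untreated tumour, from 13, 7 and 20 UMIs. In the remaining cells it stood at 21.4, 31.9 and 195. It was higher in members in each tumour, with the smallest gap in anti-CD40 tumour 2 (log2 fold change 1.55 ± 0.36 SE, adjusted p = 0.0109). H2-DMb1, the beta chain of H2-DM, stood at 1217 and 559 in members of the anti-CD40 tumours and at 1119 in members of the untreated tumour, against 121, 350.3 and 653 in the remaining cells (1.19 ± 0.22, adjusted p = 4.41e-05). Its near-copy H2-DMb2 had 5, 5 and 8 UMIs in members and 1, 13 and 19 in the remaining cells (2.43 ± 0.60, adjusted p = 0.0225); reads shared by these copies make the split between them uncertain. Without anti-CD40 tumour 1, which held 26 members, Ciita stood at 0.77 (adjusted p = 0.799) and H2-DMb1 at 0.65 (0.39). The alpha chain H2-DMa did not pass the test (0.59 ± 0.22, adjusted p = 0.471), nor did the class II protease Ctss (-0.24 ± 0.16, adjusted p = 0.956). Of the 9 tested genes of a list of 15 for class II loading, 3 were higher and 1, Lgmn, was lower, with a median of 0.28 against -0.08 over all genes.

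The promoters of H2-DMb1 and H2-DMb2, both higher in members, are shown beside that of the gate gene H2-Eb1 because the 3 share short elements. Each is the 150 bases before the RefSeq start of the gene on the plus strand of GRCm38.p6, at chr17:34153041-34153190, chr17:34145099-34145248 and chr17:34305717-34305866. GENCODE starts these genes at 34153072, 34143307 and 34305867, so for H2-DMb1 and H2-DMb2 the distances below hold for the RefSeq starts only. Capitals mark GATGATGCT, the longest run of letters found in all 3 windows, which falls in what is known in class II promoters as the X box, and TGATTGG, known as the Y box.
H2-DMb1: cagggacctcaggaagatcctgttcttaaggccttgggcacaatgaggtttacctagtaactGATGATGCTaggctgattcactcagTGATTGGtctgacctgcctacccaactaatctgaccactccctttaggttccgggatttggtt
H2-DMb2: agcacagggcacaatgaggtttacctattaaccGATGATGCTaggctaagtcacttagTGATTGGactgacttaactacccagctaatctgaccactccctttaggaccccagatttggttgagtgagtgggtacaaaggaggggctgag
H2-Eb1: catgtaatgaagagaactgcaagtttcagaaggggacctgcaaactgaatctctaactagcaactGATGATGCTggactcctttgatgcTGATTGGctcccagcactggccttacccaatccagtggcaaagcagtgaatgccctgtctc
The shared run begins 88, 117 and 85 bases before the start in H2-DMb1, H2-DMb2 and H2-Eb1, and the Y box 63, 92 and 61, with 16, 16 and 15 bases between them. On both strands, GATGATGCT was found in 44 of 32851 windows of this length (0.134%), TGATTGG in 1877 (5.71%) and both in 4 (0.0122%), which were these 3 and Nrn1l. The run was taken from these sequences, so its rarity is a description, and a match shows no binding. Ciita lies at chr16:10480059-10528418 on the plus strand of GRCm38, and its exons overlap those of Dexi on the other strand. Whether the counting used strand is not stated, so reads of such overlapping genes cannot be told apart; the same holds for Ctsb, Ctsl, Cxcl16, F13a1, Fn1, H2-DMa, Maf, Cebpb, Pla2g7, Acp5, Anxa4, Runx1, Ftl1 and Tlcd1. Overlaps on the same strand touch Fpr2, Nr1h3 and Spp1.

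Ifitm1, an interferon-induced membrane protein, stood at 649 and 918 CPM in members of anti-CD40 tumours 1 and 2 and at 1360.2 in members of the untreated tumour. The remaining cells stood at 198, 455 and 242, so that every member value lay above every value of the remaining cells (1.56 ± 0.22, adjusted p = 1.61e-09). Malt1, a scaffold of NF-kB signalling, stood at 243, 217 and 430.5 in members and at 99.8, 84.9 and 166 in the remaining cells (1.23 ± 0.29, adjusted p = 0.0134). Timd4, a receptor for phosphatidylserine known from resident macrophages, was also called, on 0, 5 and 9 UMIs in members; it is outside the rule for named genes and is given to complete the count. Without the small cluster led by Ifitm1, Klrk1 and Ciita, Ifitm1 stood at 0.56 (adjusted p = 0.963), Ciita at 1.16 (0.792) and Malt1 at 1.16 (0.112), so that no call remained for these 3 but the fold of Malt1 was close to that with the cluster. H2-DMb2 and Timd4 were not tested there, and H2-DMb1 kept its call (1.14, adjusted p = 0.000659).

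Among the genes lower in members were 5 of 16 tested macrophage genes, a direction that the C1q limit favours. Apoe, a lipid carrier, stood at 568 and 2277 CPM in members of the anti-CD40 tumours and at 2686 in members of the untreated tumour. The remaining cells stood at 1182, 5143 and 6412, more than the members of the same tumour in each case (-1.31 ± 0.18, adjusted p = 1.42e-09). Lgmn, an endosomal protease, stood at 284, 1018 and 929.8 in members and at 620.4, 2023 and 1927 in the remaining cells (-1.14 ± 0.20, adjusted p = 1.51e-05). Pf4, a chemokine of macrophages and platelets, had 1, 4 and 0 UMIs in members and 68, 379 and 93 in the remaining cells. Summed over the tumours its level in members was 0.107 of that in the remaining cells (conditional binomial interval 0.0345 to 0.250, adjusted p = 3.32e-08 in the fit).

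Of the list of 19 macrophage genes, 16 were tested; Apoe, Pf4, Lgmn, Spp1 and Ctsb were lower, 11 did not pass, and all 16 had a negative log2 fold change, with a median of -0.82 against -0.08 over all genes. Spp1 encodes the matrix protein osteopontin and Ctsb a lysosomal protease. Maf, a macrophage transcription factor, the matrix gene Fn1 and the galectin Lgals1 were lower too, at -1.20 ± 0.30, -0.97 ± 0.23 and -0.80 ± 0.20 (adjusted p = 0.026, 0.0101 and 0.026). Of 8 tested genes of a pan dendritic cell list of 13, 2 were higher (Ciita and H2-DMb2) and all 8 had a positive log2 fold change (median 0.73). These lists were written with results of these data known, so their direction is no independent evidence. Of 7 tested genes for cross-presenting dendritic cells none passed, and of 8 for type 2 dendritic cells Ifitm1 alone did. A positive log2 fold change was found for 5 of those 7 (median 0.48) and 7 of those 8 (median 0.44), with the same limit on the lists. The lists for class I presentation (13 tested), costimulation (12), type I interferon (23), interferon gamma (18), NF-kB (24), glycolysis (18) and proliferation (13) held no gene that passed. Itgax (0.85 ± 0.25, adjusted p = 0.116) and Wdfy4, needed for cross-presentation (1.20 ± 0.36, adjusted p = 0.132), did not pass either.

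**Figure D4:**
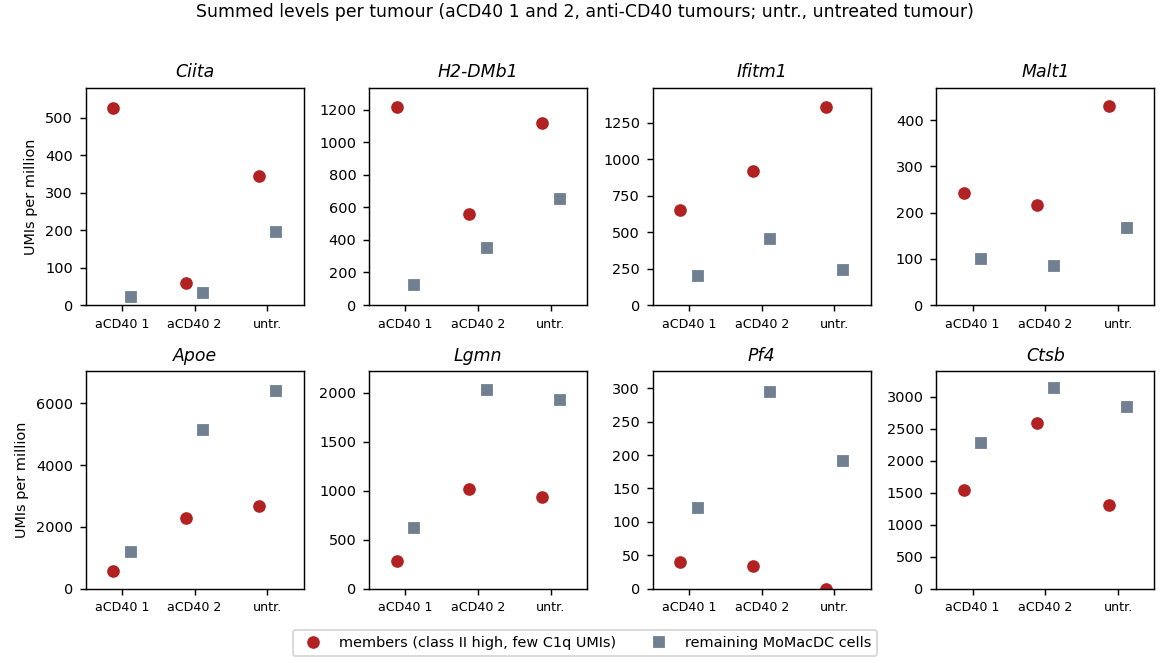
CPM in the summed members (circles) and remaining MoMacDC cells (squares) of each tumour, on linear axes from 0. Members lie above the remaining cells in each tumour for the upper 4 genes (Ifitm1 649 to 1360.2 against 198 to 455) and below them for the lower 4 (Lgmn 284 to 1018 against 620.4 to 2023).

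The other 3 lower genes were eYFP, Saa3 and Socs2. The reporter eYFP had 0, 0 and 1 UMIs in members, and 88, 93 and 55 in the remaining cells, 79, 92 and 39 of them in cells at or above the mature dendritic cell limit. Il12b, the p40 gene itself, had no UMI in members and 2 in the remaining cells. Saa3, an acute-phase gene, had no UMI in members and 146, 62 and 3 in the remaining cells, a level at least 6.11-fold lower with 3 counts as the floor over all members. Socs2, a suppressor of cytokine signalling and a marker on the mature dendritic cell list, had 0, 4 and 2 UMIs in members and 58, 140 and 71 in the remaining cells (-2.12 ± 0.54, adjusted p = 0.0304). Cd40, the receptor the antibody binds, had 1, 12 and 3 UMIs in members and did not pass the test (-0.25 ± 0.46, adjusted p = 0.991).

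The call set depended on how the cells were gated. With gates on thinned counts, 4 genes were called and 2 of the 17 were among them, Pf4 and eYFP. There Ciita stood at 1.63 and H2-DMb1 at 1.39, no smaller than with the raw gates but without a call (adjusted p = 0.163 and 0.628). Ifitm1 stood at 1.08 (0.173), Apoe at -0.56 (0.44) and Lgmn at -0.42 (0.923). DESeq2 called 2. With plain library sizes in place of TMM scaling the split was 11 higher and 9 lower, and the median log2 fold change over all genes was 0.03 instead of -0.08. Leaving out anti-CD40 tumour 2 gave 2 calls, anti-CD40 tumour 1 9, pool 1 9, pool 2 6 and pool 4 9.

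The nearest cells by class II were 878 MoMacDC cells that met the class II cutoff but had 3 or more C1q UMIs. Against them, 14 of 2014 genes passed (0.695%), 7 higher and 7 lower (0.348% each). Plac8, a gene of blood monocytes, stood at 1785 and 1251 CPM in members of anti-CD40 tumours 1 and 2 and at 1429 in members of the untreated tumour. The C1q cells stood at 754, 392.2 and 351, below all 3 (1.64 ± 0.19, adjusted p = 1.72e-10). Lsp1, an actin-binding protein of leukocytes, stood at 446, 125 and 654 in members and at 75.4, 88.3 and 155 in C1q cells (1.52 ± 0.33, adjusted p = 0.00463). Ifitm1 was higher here as well (1.26 ± 0.22, adjusted p = 0.000171), and so were Traf1, a signalling adaptor of TNF receptors (1.19 ± 0.30), Map4k4 (1.04 ± 0.26), Adgre5 (0.88 ± 0.23) and Ube2f (1.36 ± 0.36).

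Apoe stood at 568, 2277 and 2686 in members and at 3047, 5265 and 6942 in C1q cells (-1.50 ± 0.17, adjusted p = 2.07e-10). Lgmn, Pf4 and the lysosomal genes Ctsl and Grn were lower as well, at -1.06 ± 0.19, -2.73 ± 0.54, -0.91 ± 0.22 and -0.69 ± 0.17, together with Fn1 (-0.94 ± 0.23) and Aprt (-1.003 ± 0.26). Of 15 tested macrophage list genes, 3 were lower (Apoe, Lgmn and Pf4) and all 15 were negative, with a median of -0.53 against 0 over all genes. The C1q limit set these groups apart, and the monocyte, mature dendritic cell and Arg1 limits applied to the members only. Genes that go with any of these limits had to move to some degree. The direction of the list is therefore no independent evidence. Median depth was 1045, 1046 and 489 UMIs in C1q cells of anti-CD40 tumours 1 and 2 and the untreated tumour. In members it was 615, 585.5 and 310, and its part was not tested apart from the alternatives. The class II machinery did not pass in this comparison: Ciita was at 0.37 ± 0.35 (adjusted p = 0.847), H2-DMb1 at 0.14 ± 0.20 (0.902) and H2-DMa at -0.10 ± 0.20 (0.921). The count was 0 without anti-CD40 tumour 1, 23 without anti-CD40 tumour 2, 0 without the untreated tumour, 6 without pool 1 and 2 without pool 2. Without the cluster led by Ifitm1, Klrk1 and Ciita it was 3. Ifitm1 then stood at 0.31 (adjusted p = 0.785), and at 0.48 (0.878) with gates on thinned counts, whereas Plac8 kept its call in both (1.55 and 1.64, adjusted p = 0.000105 and 0.0109).

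Against 175 cells at or above the monocyte limit and below the C1q limit, 36 of 1146 genes passed (3.14%), 17 higher (1.48%) and 19 lower (1.66%). Itgax, the CD11c integrin of dendritic cells and macrophages, stood at 689.5 and 300.3 CPM in members of the anti-CD40 tumours and at 619.9 in members of the untreated tumour, against 45.9, 168 and 136 in the monocyte gate cells (2.37 ± 0.46, adjusted p = 5.17e-05). H2-DMb1 (2.85 ± 0.45), the chemokine Cxcl16 (2.11 ± 0.43), Ifitm1 (2.31 ± 0.47) and the receptor Axl (2.18 ± 0.59) were higher too. Ciita had 13, 7 and 20 UMIs in members and 1, 0 and 0 in the monocyte gate cells, a ratio of 54.2 (interval 9.19 to 2194). Of the 15 tested genes of the monocyte list, 7 were lower in members, among them Hp, Plac8, F13a1 and Lyz2, and 1, Ly6a, was higher, with a median of -1.20 against -0.03 over all genes. Members were gated for class II and against the monocyte genes that the other group had to carry. Genes that go with either therefore had to move to some degree, and the list count is no independent evidence. Hp, haptoglobin, stood at 40.6, 100.1 and 34.4 in members and at 779.5, 216 and 899.5 in monocyte gate cells (-2.89 ± 0.49, adjusted p = 2.57e-06). Plac8 stood at 4529.5, 2788 and 5724 in monocyte gate cells, above its level in members of the same tumour in each case. The count was 0 without anti-CD40 tumour 1, 0 without the untreated tumour, 2 without pool 1, 8 without pool 2 and 20 without pool 4.

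Against the 156 cells at or above the mature dendritic cell limit, members had more Lyz2 and Clec4a1 and fewer Cd40 and Cd70 transcripts. Here 570 of 1327 genes passed (43%), 21.2% higher and 21.8% lower. Lyz2 stood at 9410.2, 12455 and 3650.3 CPM in members and at 300.4, 808 and 651 in mature dendritic cell gate cells, and 10 of 11 tested monocyte list genes were higher in members, with a median of 3.50 against 0.04 over all genes. Beside these, 6 of 8 tested macrophage list genes and 5 of 11 mitochondrial genes were higher (medians of 2.17 and 0.70), as were 4 of 15 dissociation stress genes. Their part in the other differences was not tested. Of the 15 monocyte list genes 11 were tested, and of the 19 macrophage list genes 8. Genes low in both groups did not reach the count filter, so the counts of these 2 lists are no support. Flt3 stood at 122, 8.34 and 138 in members and at 579, 707 and 326 in those cells. Clec4a1, a lectin receptor of myeloid cells, had 9, 35 and 9 UMIs in members and none in those cells, at least 11.4-fold higher. Of 18 genes for costimulation 11 were tested, and these were lower in members; genes low in both groups did not reach the count filter and the gate took out mature dendritic cell genes, so the count itself is no support. Cd40 stood at 40.6 and 100.1 in members of the anti-CD40 tumours and at 51.7 in members of the untreated tumour, against 751, 736 and 130.3 (-2.93 ± 0.48, adjusted p = 0.000189). Cd70, a costimulatory ligand, had no UMI in members and 27, 20 and 1 in those cells, at least 24.7-fold lower. Fewer genes were tested when a part was left out. The count was 217 of 488 tested genes without pool 1, 323 of 719 without pool 2, 376 of 865 without pool 4 and 223 of 662 without anti-CD40 tumour 2.

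Members of the anti-CD40 tumours had more transcripts of Cxcl2, Cebpb, Hmox1, Ftl1 and Plin2 than those of the untreated tumour, and fewer of Fn1, Crip1 and Cd83. The rule did not use the treatment. Of 1486 genes tested over 3 sums, 25 passed (1.68%), 18 of them higher (1.21%) and 7 lower (0.471%). The fit had 1 residual degree of freedom, the lone untreated tumour was assumed to vary like the others, and the error was shared over all genes. Depth per member moved with the condition (medians of 615 and 585.5 against 310 UMIs), and its part in these differences was not tested apart from the alternatives given below. The clusters moved with the condition too: the Gatm cluster held 4 and 12 members of anti-CD40 tumours 1 and 2 and 76 of the untreated tumour, and the Gdf15 and Nr1h3 cluster held 10 and 49 against 8. Gatm, Pmepa1, Nr1h3, Lpl and Clec4d are leading genes of these clusters or of the Ptgfrn cluster (3 and 51 against 8) and also among the treatment calls, and the part of cluster make-up was not tested.

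Cxcl2, a chemokine that draws neutrophils, stood at 1906 and 5080.3 CPM in members of anti-CD40 tumours 1 and 2 and at 603 in members of the untreated tumour (2.56 ± 0.52, adjusted p = 0.000437). Cebpb, a transcription factor of inflammatory myeloid cells, stood at 1744 and 2728 against 517 (2.12 ± 0.52, adjusted p = 0.00534). Both anti-CD40 values lay above the untreated value for each gene, by more in tumour 2. Fpr2, a receptor for formyl peptides, stood at 284 and 909 against 51.7 (3.64 ± 0.79, adjusted p = 0.00127). The lectin receptors Clec4d (3.14 ± 0.75) and Clec4n (2.01 ± 0.59), the chemokine Ccl3 (3.18 ± 0.93) and the ectoenzyme Cd38 (4.01 ± 1.10) were also higher. Of 17 tested NF-kB genes on a list of 26, 2 were higher (Cxcl2 and Ccl3) and 14 had a positive log2 fold change, with a median of 0.76 against 0.04 over all genes.

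Of a list of 20 genes for lipid handling and the LXR receptors, 6 were tested and Nr1h3, Lpl and Plin2 were higher. Nr1h3 and Lpl reached the count filter only through the anti-CD40 members, so the share of tested genes is no support. Nr1h3, the LXR alpha receptor, had 11 and 29 UMIs in members of the anti-CD40 tumours and none in those of the untreated tumour, at least 5.36-fold higher. Lpl, a lipase that releases fatty acids, had 3 and 51 UMIs against none, at least 7.23-fold higher. Plin2, which coats lipid droplets, stood at 771 and 926 CPM against 172 (2.29 ± 0.65, adjusted p = 0.0353). Hmox1, which breaks down haem, stood at 608 and 1443 against 138 (2.96 ± 0.65, adjusted p = 0.00127). Ftl1, the ferritin light chain that stores iron, stood at 4421 and 5372 against 1274 (1.92 ± 0.49, adjusted p = 0.0105). Pla2g7, Acp5, Anxa4, Marcksl1 and Ly6i completed the higher genes together with S100a9, at 284 and 692 against 17.2. S100a9 is a neutrophil marker, and the whole neutrophil list summed higher in these members too (527 and 1260 against 172 CPM); S100a9 fell below the count filter once cells with markers of another type were left out.

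The lower genes were fewer. Fn1 stood at 81.1 and 209 CPM in members of the anti-CD40 tumours and at 1205 in members of the untreated tumour (-2.79 ± 0.55, adjusted p = 0.000178). Crip1, a small LIM domain protein, stood at 892 and 542 against 2462 (-1.90 ± 0.45, adjusted p = 0.00357). Pmepa1, a target of TGF-beta signalling, had 0 and 4 UMIs against 27 (-4.01 ± 0.76, adjusted p = 0.000178). Cd83, a surface protein that stabilises class II, stood at 162 and 142 against 654 (-2.15 ± 0.55, adjusted p = 0.00989). Runx1, Gatm and Tlcd1 were the others. Class II loading and interferon genes gave no call. None of 7 tested class II loading genes passed, all 7 being negative with a median of -0.49, and none of 12 tested interferon gamma genes passed, with 10 negative and a median of -0.82. Ciita stood at -0.92 ± 0.64 (adjusted p = 0.692) and H2-DMb1 at -0.49 ± 0.48 (adjusted p = 0.817). Of 16 tested dissociation stress genes none passed, with a median of 0.61, and of 13 tested type I interferon genes none did, with a median of -0.16. Mitochondrial genes were negative in 11 of 11 (median -0.55) and ribosomal protein genes in 17 of 19 (median -0.41), with none past the test. Mitochondrial genes summed to 17441 and 23066 CPM in members of the anti-CD40 tumours and to 29237 in those of the untreated tumour, and their part in the differences was not tested.

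**Figure D5:**
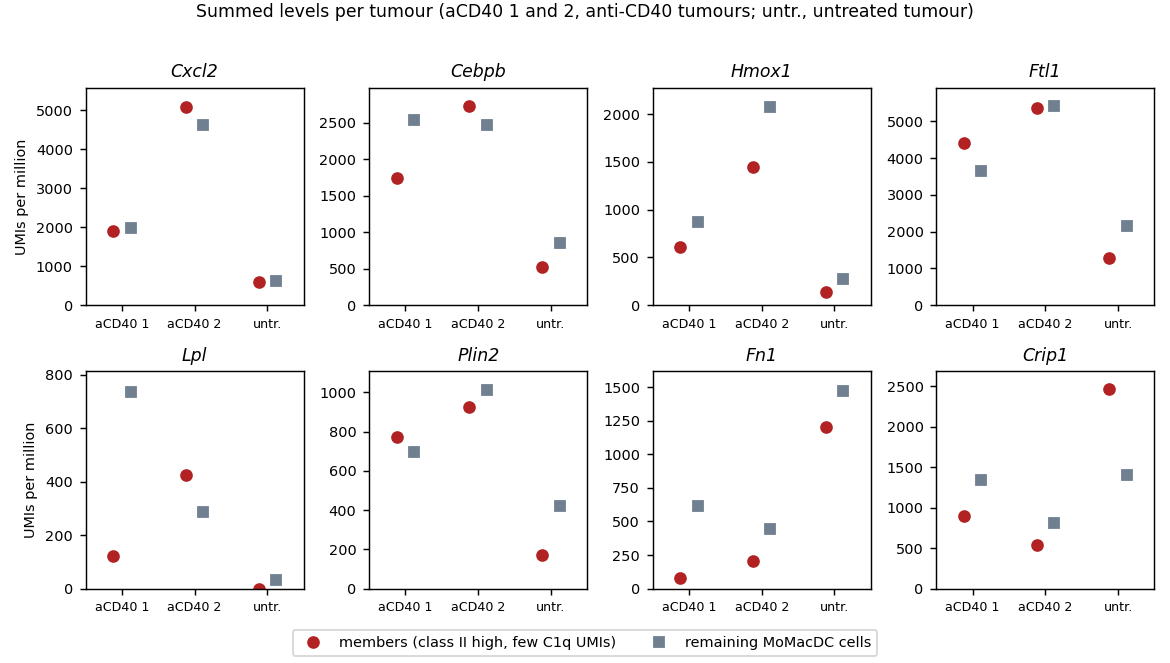
CPM in the summed members (circles) and remaining MoMacDC cells (squares) of each tumour for 8 genes called between anti-CD40 and untreated members, on linear axes from 0. Members of both anti-CD40 tumours lie above those of the untreated tumour for the first 6 genes (Ftl1 4421 and 5372 against 1274) and below for Fn1 and Crip1; the remaining cells of the same tumours are drawn beside them.

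The remaining cells came from the same 3 tumours and share the untreated tumour, so their values are given side by side only. All 25 genes called in members moved in the same direction in the remaining cells of both anti-CD40 tumours, so these directions were not particular to members. Cxcl2 stood at 1968 and 4608 in the remaining cells of the anti-CD40 tumours and at 618 in those of the untreated tumour, and Nr1h3 at 210.4 and 192 against 12.3. The difference between the treatment effects in members and in the remaining cells was tested as an interaction over 6913 genes. No gene passed in edgeR's quasi-likelihood test (0%) or in DESeq2, and 142 genes had an unadjusted p below 0.05. Crip1 had the smallest p of the 25 genes (interaction -1.52 ± 0.46, unadjusted p = 0.000938, adjusted p = 1), at 1344 and 812 against 1399 in the remaining cells.

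The number of treatment calls depended on the processing. DESeq2 called none, and neither did the fit without pool 2, the fit without a filter on low counts or the fit on cells with at least 600 UMIs, whose 513 tested genes are fewer. The folds moved less than the calls in the first 3 of these: Cxcl2 stood at 2.53, 2.46 and 2.52, and Fn1 at -2.93, -2.84 and -2.86. Those 3 alternatives do not match depth between the conditions, so their folds do not bear on it. The fit on cells with at least 600 UMIs held 13 and 71 members of anti-CD40 tumours 1 and 2 and 17 of the untreated tumour, and its folds are not given here. With gates on thinned counts 78 genes passed, 23 of the 25 among them. Without the second pool of anti-CD40 tumour 2 (pool 4) 14 passed, and with a class II cutoff of 2.5% 4 passed. Within pools the comparison has 1 sum a side and no test. Ftl1 differed by 1.67 and 1.79 on the log2 scale within pools 1 and 2, and Fn1 by -5.94 and -2.83. These values take a small added count. The anti-CD40 sums there held 11777 and 12877 UMIs from 11 and 15 members. Fn1 was low in those members, so the size of its 2 folds is uncertain.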

How the data were processed

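Raw UMI counts per cell and gene were deposited by the authors for 4440 cells and 22631 genes, with a cell table that gives each cell's library, tumour and cell class. Reads were handled with bcl2fastq and STAR against GRCm38, per the submitters' processing notes; versions, the counting program, its use of strand, cell filters and doublet handling are not given in the labels or files, and no doublets were removed here. Cells held 3961141 UMIs in all.

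UMIs were summed per tumour and cell group, without the 15 gate genes, and tested with edgeR 4.0.16 (quasi-likelihood, robust, TMM scaling, filterByExpr) and Benjamini-Hochberg adjustment at 0.05 in R 4.3.3; DESeq2 1.42.0 was an alternative. Fits between cell groups had the tumour as a block, since both groups came from the same tumours; deviations of members and remaining cells of a tumour correlated at 0.325, 0.671 and 0.594 in anti-CD40 tumours 1 and 2 and the untreated tumour over 933 genes. Clusters were made with scanpy 1.11.5. Intervals are 95% and cover counting error only, and the floor is 3 counts over a group. Sequences are RefSeq's on GRCm38.p6 and gene positions GENCODE's on GRCm38.

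The members and gene lists were chosen with earlier results of these data known. Named genes are the 12 largest called changes in each direction against the remaining cells (6 against other groups, 10 for treatment) that ran the same way in all tumours with at least 20 UMIs, up to 4 per list, called list genes, and Cd40, Il12b and Ciita. Alternatives varied scaling, tool, count filter, class II cutoff, depth, thinning, block and libraries.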

Additional observations from a re-analysis of the deposited data

Results flagged for a closer look

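Among the 4 libraries of anti-CD40 tumour 2, a pool 3 library gave a share of members of 18.7% (53 of 284 MoMacDC cells), against 8.72% to 8.99% in the other 3. Its gap to the next library was 0.973 of the whole range, above Dixon's 95% critical value for 4 samples, which chance passes in about 1 in 20 groups. The library had a median of 589 UMIs per MoMacDC cell, and 19.4% of its cells had fewer than 300 UMIs. Among its cells with at least 300 UMIs the share was 14.0%, and by gates on thinned counts it was 25.3%, with a gap of 0.795 of the range, under the critical value.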

How the results depend on the processing

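Counts of called genes moved by over 1.5 times under several alternatives; except where a value below bears on it, the cause was not tested. Against the remaining cells (17 calls), DESeq2 gave 2, gates on thinned counts 4, leaving out the cluster led by Ifitm1 and Ciita 8, leaving out the clusters led by T cell, neutrophil and mature dendritic cell genes 33, and leaving out a tumour or pool 2 to 24. Against class II high C1q cells (14 calls), DESeq2 gave 2, thinned gates 2, a class II cutoff of 2.5% 3, leaving out the Ifitm1 and Ciita cluster 3, leaving out cells with markers of a second type 23, and leaving out a tumour or pool 0 to 23. Against mature dendritic cell gate cells (570 calls of 1327 tested genes), DESeq2 gave 289 of 1327 and cells with at least 600 UMIs 343 of 727. Leaving out a tumour or pool gave 217 of 488 to 578 of 1176 there. Against monocyte gate cells (36 calls), DESeq2 gave 7, no count filter 10, at least 600 UMIs 14, class II cutoffs of 1% and 2.5% 11 and 3, leaving out the Ifitm1 and Ciita cluster 19, leaving out the T cell, neutrophil and mature dendritic cell clusters 22, and leaving out a tumour or pool 0 to 35. Spp1 reversed there with thinned gates, at 2.13 instead of -1.63 (adjusted p = 0.197).

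Between anti-CD40 and untreated members (25 calls), DESeq2, no count filter and at least 600 UMIs each gave 0, a class II cutoff of 2.5% 4, members with dendritic cell lists 4, thinned gates 78, and leaving out a pool 0 to 21. For the interaction (0 calls), leaving out second-type cells gave 1, at least 600 UMIs 2, and leaving out a pool 0 to 1. Leaving out a tumour left no test of treatment.

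The share of members was 13.1% with thinned gates and 3.79% with a 2.5% cutoff in anti-CD40 tumour 1, and 5.73% to 5.86% without a pool. In anti-CD40 tumour 2 it was 21.1% thinned, 13.2% and 7.52% with cutoffs of 1% and 2.5%, 7.47% at 600 UMIs or more, 8.89% without its highest library, and 8.85% to 13.5% without a pool. In the untreated tumour it was 16.8% thinned, 17.96% and 9.33% with those cutoffs, 5.35% and 10.4% at 600 and 300 UMIs or more, and 11.3% to 17.1% without a pool.

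Without the replicate block that pairs the groups of a tumour, the calls were 0 against the remaining cells, 0 against C1q cells, 384 against mature dendritic cell gate cells and 0 against monocyte gate cells. The alternatives that leave out clusters, a library or cells under 300 UMIs were chosen after seeing the data. Leaving out the T cell, neutrophil and mature dendritic cell clusters gave no fit against mature dendritic cell gate cells, with fewer than 10 cells in a sum.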
